A study of Mus musculus with 40 samples.

Results

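The 9 genes described here encode the enzymes and the transporter by which the liver makes, burns and stores glucose: *Pck1*, *G6pc*, *Fbp1*, *Pcx*, *Pklr*, *Gys2*, *Pygl*, *Slc2a2* and *Pfkfb1*. They were taken by gene symbol from 21448 symbols in a table of probe counts, and each is described by its most counted probe. The 9 genes had 12 probes, of which 11 passed a filter on low counts, so all 9 genes were tested. The counts were measured by TempO-Seq in liver sections of wildtype Crl:CD1(ICR) mice, an outbred stock. In this assay a pair of probes is joined on its target RNA and sequenced. Male and female mice had received GenX, a fluorinated processing aid for polymers, by oral gavage on each of 90 days. The doses were 0 (control, the deionized water vehicle), 0.1, 0.5 and 5 mg/kg. Each of the 8 groups had 5 mice, housed individually, and each library came from formalin-fixed tissue scraped from a section of a single block. Chow and water were freely available, but the hour of necropsy and whether the mice were fasted for it were not given in the sources used here.

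The liver keeps blood glucose steady by opposite pathways. Gluconeogenesis builds glucose from lactate, amino acids and glycerol, while glycolysis breaks glucose down to pyruvate, and glycogen is built up after meals and broken down between them. Fasting hormones raise transcription of *Pck1* and *G6pc*, insulin lowers it, and *Pklr* is induced by feeding on carbohydrate, so all these messengers follow meals and the time of day.

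After 90 days at 5 mg/kg, 5 of the 9 genes fell in males and 4 fell in females at a false discovery rate (FDR) of 10%, and 1 gene rose in females. *Pck1*, *Pklr*, *Pygl* and *Slc2a2* passed the test in both sexes, *Fbp1* passed it in males and *Gys2*, the liver glycogen synthase, passed it in females, in the higher direction. Among all 12412 genes tested, read on their most counted probe, 9.35% were called in males at this dose, with 3.75% lower and 5.59% higher. In females the share was 4.09%, with 2.00% lower and 2.09% higher. The median log2 fold change of the 9 genes was −0.65 in males against 0.11 over all genes, and −0.53 in females against −0.01. Without *Pfkfb1*, which was hardly detected, it was −0.71 in males and −0.44 in females. *G6pc*, *Pcx* and *Pfkfb1* passed the test in no comparison.

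The libraries of 39 mice held 10341341 to 15562253 reads. The library of mouse 355, a female at 0.5 mg/kg, had 6711981 reads and was left out, which leaves 4 mice in that group. With this library included, only *Pck1* in males and *Pklr* in females were still called at 5 mg/kg. Levels are counts per 1e6 reads (CPM) after scaling by trimmed means, and the tests compare mice for the same probe. Levels of different genes are set together only in ratios within a library and in marker sums, which were not tested. Reads are copies made by PCR and carry no molecular tags. In each library the nonzero counts had a first peak, at 21 to 45 reads. This peak was taken as the worth of 1 captured molecule, an estimate only, since some counts lay below it. In males the peak moved with dose: it was 36 to 41 reads in control libraries and 21 to 28 reads at 5 mg/kg. By this estimate these libraries held 284218 to 367656 and 489778 to 649658 molecules. In females the ranges overlapped, at 24 to 45 and 32 to 41 reads. With counts in molecules the 5 genes called in males were still called, and *Gys2* joined them. These counts were again scaled by trimmed means, which removes the shift between libraries, so that fit cannot bear on it. Before scaling, median molecules in control males and males at 5 mg/kg were 796 and 814 for *Pck1* and 1354 and 1566 for *Fbp1*. They were 329 and 360 for *Pygl*, 6.40 and 6.09 for *Slc2a2*, and 10.9 and 5.84 for *Pklr*. The falls reported here are therefore in the share of a library. The part of this library property in the results was not tested. By the estimated reads per molecule, a level of a few CPM rests on few captured molecules, and the tests measure the spread between mice. In such sections fewer cells of a type and less RNA per cell cannot be told apart. Liver identity was checked on 4 hepatocyte markers (*Alb*, *Ttr*, *Apoa2* and *Hp*), whose summed level was 9366 to 14405 CPM in every library. The 6 Kupffer cell markers summed to 13.1 to 130 CPM and the 6 leukocyte markers to 0 to 29.2 CPM. Among these, the Kupffer marker *Timd4* and the neutrophil marker *S100a9* had no reads.

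The plot of the 9 genes by mouse gives the levels behind these calls.

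**Figure D1:**
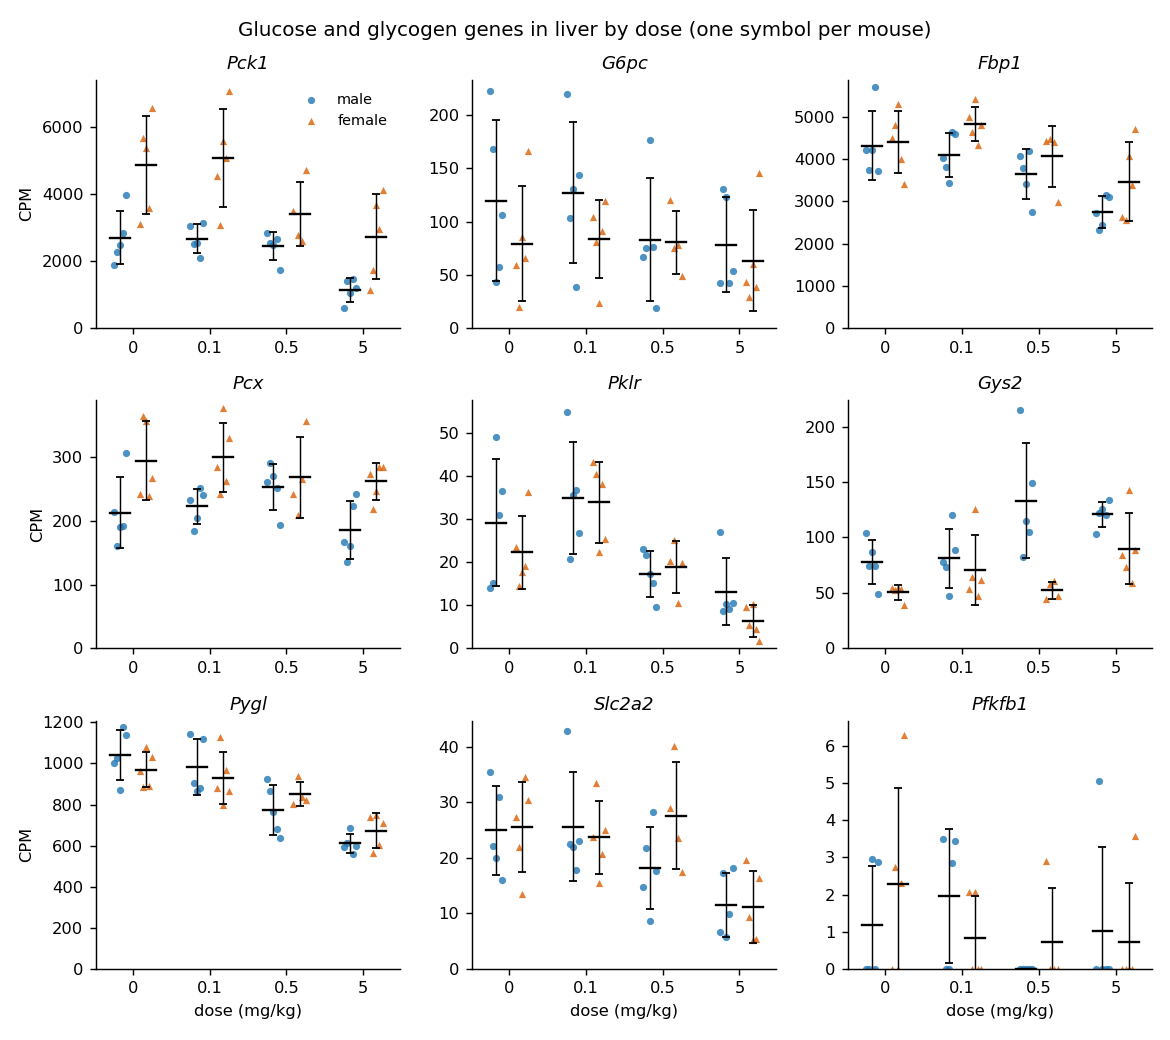
Level of each gene (CPM, linear axis from 0) against dose (mg/kg, equally spaced categories) for males (blue circles) and females (orange triangles), 1 symbol per mouse, with the group mean (bar) and SD (whiskers). The 5 males at 5 mg/kg lie below all control males for *Pck1*, *Fbp1* and *Pygl*, the 5 females at 5 mg/kg lie below all control females for *Pklr* and *Pygl*, and *Pfkfb1* is at 0 in most mice.

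*Pck1* encodes the cytosolic phosphoenolpyruvate carboxykinase, which turns oxaloacetate into phosphoenolpyruvate and is the classic entry step of gluconeogenesis (chr2:173153048-173159273, plus strand, GENCODE annotation of GRCm38). In control males the level was 1887, 2282, 2483, 2835 and 3974 CPM. At 5 mg/kg it was 583, 1399, 1051, 1460 and 1204 CPM, so every treated male was below every control male. The mean went from 2692 ± 795 to 1139 ± 350 CPM (SD, n = 5 each), a log2 fold change of −1.24 ± 0.25 (SE), or 57.7% lower, with an adjusted p of 0.000298 in edgeR's quasi-likelihood test. At 0.1 mg/kg the males were at 2094 to 3129 CPM and at 0.5 mg/kg at 1737 to 2839 CPM, within or just under the control range, with log2 fold changes of −0.01 and −0.14. The step from 0.5 to 5 mg/kg was itself significant, at −1.10 ± 0.24 on the log2 scale and an adjusted p of 0.00462 by the same test.

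Control females had more *Pck1* than control males. Their levels were 3117, 5669, 5384, 3581 and 6561 CPM, with a mean of 4862 ± 1457, which is 1.81-fold the male level (adjusted p = 0.0436, edgeR). Females at 5 mg/kg were at 1142, 1733, 3682, 2952 and 4112 CPM, a mean of 2724 ± 1263. The groups overlapped, since mice 453 and 455 lay within the control range. The log2 fold change was −0.84 ± 0.24, or 44.0% lower, with an adjusted p of 0.0454 (edgeR). This call rests on single mice: without any of mice 152, 153, 155, 451 or 452 the adjusted p was 0.102 to 0.201. The difference between the sexes in control mice was likewise lost without mouse 101, 102, 103, 152, 153 or 155, where the adjusted p was 0.101 to 0.155. At 0.5 mg/kg females were at 2609 to 4705 CPM, with a log2 fold change of −0.52 and an adjusted p of 0.485. Mice 451 and 452, with the lowest *Pck1* of the females at 5 mg/kg, also had the lowest *Fbp1*, and mouse 455 had the highest level of both genes.

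*Fbp1* encodes fructose-1,6-bisphosphatase, which works against phosphofructokinase late in gluconeogenesis (chr13:62864753-62888282, minus strand). Control males were at 4216, 3754, 4226, 5714 and 3712 CPM, and males at 5 mg/kg at 2730, 2325, 2431, 3149 and 3112 CPM, without overlap. This is a log2 fold change of −0.65 ± 0.15, or 36.4% lower, with an adjusted p of 0.00158 (edgeR). In females the level was 4500, 4803, 5309, 4010 and 3405 CPM in controls and 2623, 2560, 4085, 3377 and 4709 CPM at 5 mg/kg. These groups overlapped, and the log2 fold change of −0.34 ± 0.15 had an adjusted p of 0.258 (edgeR).

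*G6pc* encodes the catalytic subunit of glucose-6-phosphatase, which releases free glucose and which *Pck1* often accompanies in fasting (chr11:101367561-101377903, plus strand). Its level varied more between control mice than that of the other well-detected members, with a coefficient of variation of 63.5% in males and 68.2% in females, against 11.6% and 8.83% for *Pygl*. Control males were at 223, 168, 43.4, 56.9 and 106 CPM and males at 5 mg/kg at 41.8, 131, 123, 42.4 and 53.2 CPM. Control females were at 59.3, 19.7, 85.5, 65.9 and 166 CPM and females at 5 mg/kg at 43.6, 28.7, 59.7, 38.4 and 146 CPM. The groups overlapped almost fully. In mice given 5 mg/kg it differed on the log2 scale by −0.61 in males (95% confidence interval −1.57 to 0.36) and −0.33 in females (−1.29 to 0.64), so a fall as large as that of *Pck1* lies within both intervals. *Pcx*, the mitochondrial pyruvate carboxylase (chr19:4510472-4621752, plus strand), ranged from 161 to 306 CPM in control males and from 136 to 242 CPM at 5 mg/kg, and from 239 to 365 and 218 to 285 CPM in females. Its log2 fold change was −0.20 (−0.55 to 0.15) in males and −0.17 (−0.51 to 0.18) in females.

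*Slc2a2* encodes GLUT2, the glucose transporter of the hepatocyte membrane (chr3:28697903-28731359, plus strand). Control males were at 35.5, 22.1, 20, 31 and 16 CPM and males at 5 mg/kg at 6.69, 17.2, 5.80, 9.94 and 18.1 CPM. Control females were at 27.3, 22, 13.4, 34.5 and 30.4 CPM and females at 5 mg/kg at 19.6, 9.34, 5.18, 5.34 and 16.3 CPM. The treated mice were mostly the lower ones, with some overlap in both sexes. On the log2 scale the change was −1.11 ± 0.39 in males (adjusted p = 0.0816, edgeR) and −1.19 ± 0.39 in females (adjusted p = 0.0969). These are weak calls: leaving out any of mice 101, 104, 401, 403 or 404 gave an adjusted p of 0.150 to 0.207 in males. In females the call was lost without mouse 151, 152, 154, 155, 452, 453 or 454, with an adjusted p of 0.121 to 0.279. The second probe of the gene had 0 to 14 CPM per mouse and was called in neither sex. Its log2 fold change at 5 mg/kg was −2.97 in males and, in the opposite direction to the first probe, 0.47 in females.

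The upstream sequences are shown for the 4 members that fell in males at 5 mg/kg and have a single start in the RefSeq promoter table (GRCm38.p6). They were chosen by that call, and shared control of these genes was not tested. Of the 9 genes, 8 matched that table by symbol, and *Gys2* did not. Each line gives the 250 bases before the RefSeq transcription start, 5′ to 3′ on the strand of the gene. For *Pck1* and *Pygl* this start lies inside the GENCODE gene bounds given in this report. All distances below are counted from the RefSeq start.
Pck1, chr2:173152823-173153072, plus strand: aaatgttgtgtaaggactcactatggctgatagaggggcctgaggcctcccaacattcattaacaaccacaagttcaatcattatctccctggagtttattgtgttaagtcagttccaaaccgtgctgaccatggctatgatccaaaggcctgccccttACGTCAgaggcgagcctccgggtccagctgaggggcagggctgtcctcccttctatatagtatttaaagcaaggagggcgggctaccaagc
Fbp1, chr13:62888283-62888532, minus strand: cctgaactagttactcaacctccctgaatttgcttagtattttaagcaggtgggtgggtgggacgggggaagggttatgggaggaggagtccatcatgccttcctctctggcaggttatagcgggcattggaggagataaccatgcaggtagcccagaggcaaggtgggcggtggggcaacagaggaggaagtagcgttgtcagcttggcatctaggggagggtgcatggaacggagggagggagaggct
Pygl, chr12:70227684-70227933, minus strand: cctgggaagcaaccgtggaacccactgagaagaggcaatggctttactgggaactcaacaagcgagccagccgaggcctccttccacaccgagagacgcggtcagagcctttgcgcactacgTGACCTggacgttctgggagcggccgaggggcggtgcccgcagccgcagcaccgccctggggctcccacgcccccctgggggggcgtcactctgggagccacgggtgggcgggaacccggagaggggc
Slc2a2, chr3:28697653-28697902, plus strand: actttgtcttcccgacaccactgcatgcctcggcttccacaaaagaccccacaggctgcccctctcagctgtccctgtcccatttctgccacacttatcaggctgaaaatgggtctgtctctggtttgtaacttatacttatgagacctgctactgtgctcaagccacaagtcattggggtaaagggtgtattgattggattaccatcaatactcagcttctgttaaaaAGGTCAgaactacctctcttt
Capitals mark matches on either strand to TGACGT, the core of the cAMP response element, and to AGGTCA, the short site bound by many nuclear receptors. *Pck1* held the first of these, read on the opposite strand, 91 to 86 bases before its start, which is the place where the cAMP response element of this gene is known to lie. *Pygl* and *Slc2a2* each held an AGGTCA, at 128 to 123 and at 21 to 16 bases before the start, and *Fbp1* held neither. Members not shown held it too. It lay 54 to 49 bases before the start of *G6pc* and 100 to 95 bases before a start of *Pfkfb1*, both called in no comparison. In *Pklr* it lay 151 to 146 bases before a start. Over the 32851 promoters of the table, 6.47% of the same windows held TGACGT and 14% held AGGTCA. The FOXO element TGTTTAC (3.17% of all windows), the E-box CACGTG (6.02%) and CAAAGTCCA, a sequence of the HNF4 type (0.384%), were also searched on both strands. None of these 3 was in the 4 windows, and no matches overlapped. The letters searched were chosen after the sequences had been seen, and a match describes the sequence and not a factor bound to it.

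*Pklr* encodes the liver pyruvate kinase, the last enzyme of glycolysis (chr3:89136142-89146784, plus strand). It fell in both sexes, as the gluconeogenic *Pck1* did. Control females were at 23.6, 14.6, 17.8, 19.2 and 36.4 CPM and females at 5 mg/kg at 9.71, 5.49, 10.4, 4.39 and 1.61 CPM, all below the lowest control. The log2 fold change was −1.82 ± 0.41, or 71.7% lower, with an adjusted p of 0.00381 (edgeR). The lowest of these females had 18 reads, or 0.562 of the estimated reads per captured molecule in its library. From 0.5 to 5 mg/kg the log2 fold change in females was −1.58 ± 0.42 with an adjusted p of 0.0534 (edgeR), a call lost without mouse 351, 352, 354, 452, 454 or 455 (adjusted p of 0.134 to 0.208). Control males were at 14.1, 15.3, 49.1, 31 and 36.6 CPM and males at 5 mg/kg at 27, 8.67, 10.3, 9.09 and 10.6 CPM. Mouse 401, at 27 CPM, stood apart from the other 4 treated males, which were below all controls. The log2 fold change was −1.15 ± 0.40 with an adjusted p of 0.0793 (edgeR). The adjusted p was 0.0105 without mouse 401, and 0.128 to 0.241 without mouse 103, 104, 105, 402, 403, 404 or 405.

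*Pfkfb1* encodes the liver form of the enzyme that sets fructose-2,6-bisphosphate, the switch between glycolysis and gluconeogenesis (chrX:150588229-150643878, plus strand). Its most counted probe had reads in 13 of the 39 libraries, 29 to 95 reads each, by estimate the worth of a few captured molecules at most. A change of this gene was not detectable at this depth, and no fold is given.

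*Pygl* encodes the liver glycogen phosphorylase, which frees glucose units from glycogen (chr12:70190811-70231488, minus strand). Its coefficient of variation in controls was the smallest of the 9 genes. Control males were at 1002, 1025, 871, 1178 and 1139 CPM, males at 0.5 mg/kg at 923, 866, 764, 682 and 637 CPM, and males at 5 mg/kg at 595, 614, 687, 558 and 598 CPM. All 5 males at 5 mg/kg were below the lowest control, and at 0.5 mg/kg all but mouse 301 were. The log2 fold change was −0.77 ± 0.12 at 5 mg/kg, or 41.5% lower, with an adjusted p of 6.27e-06 (edgeR). At 0.5 mg/kg it was −0.43 ± 0.12 with an adjusted p of 0.0554 (edgeR), which made *Pygl* the only member called below the highest dose. That call was lost without mouse 104, 105, 303, 304 or 305, with an adjusted p of 0.116 to 0.207. Control females were at 963, 887, 1078, 888 and 1034 CPM and females at 5 mg/kg at 737, 563, 751, 602 and 709 CPM, again without overlap. Their log2 fold change was −0.53 ± 0.12, or 30.7% lower, with an adjusted p of 0.00486 (edgeR). The second *Pygl* probe gave, at 5 mg/kg, −0.50 ± 0.14 for males and −0.62 ± 0.14 for females, called in both sexes, and −0.41 in males at 0.5 mg/kg, not called (adjusted p = 0.133).

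*Gys2* encodes glycogen synthase of the liver, the enzyme that works against *Pygl* (chr6:142422613-142473109, minus strand). Control females were at 54.6, 52.3, 54.7, 53.6 and 38.8 CPM and females at 5 mg/kg at 84.6, 73.6, 143, 58.6 and 88.6 CPM, all above the highest control. The mean went from 50.8 ± 6.80 to 89.7 ± 32.1 CPM, a log2 fold change of 0.82 ± 0.25, or 1.77-fold, with an adjusted p of 0.0607 (edgeR). Without mouse 152, 155 or 453 the adjusted p was 0.106 to 0.303. Control males were at 104, 74.5, 86.5, 74.7 and 49.2 CPM, males at 0.5 mg/kg at 215, 82.0, 115, 105 and 149 CPM, and males at 5 mg/kg at 103, 122, 126, 120 and 134 CPM. Most treated males were higher, but the groups overlapped. The log2 fold change was 0.78 ± 0.25 at 0.5 mg/kg (adjusted p = 0.113, edgeR) and 0.63 ± 0.25 at 5 mg/kg (adjusted p = 0.135), neither of which passed the threshold.

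The forest plot sets the estimates of all doses side by side.

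**Figure D2:**
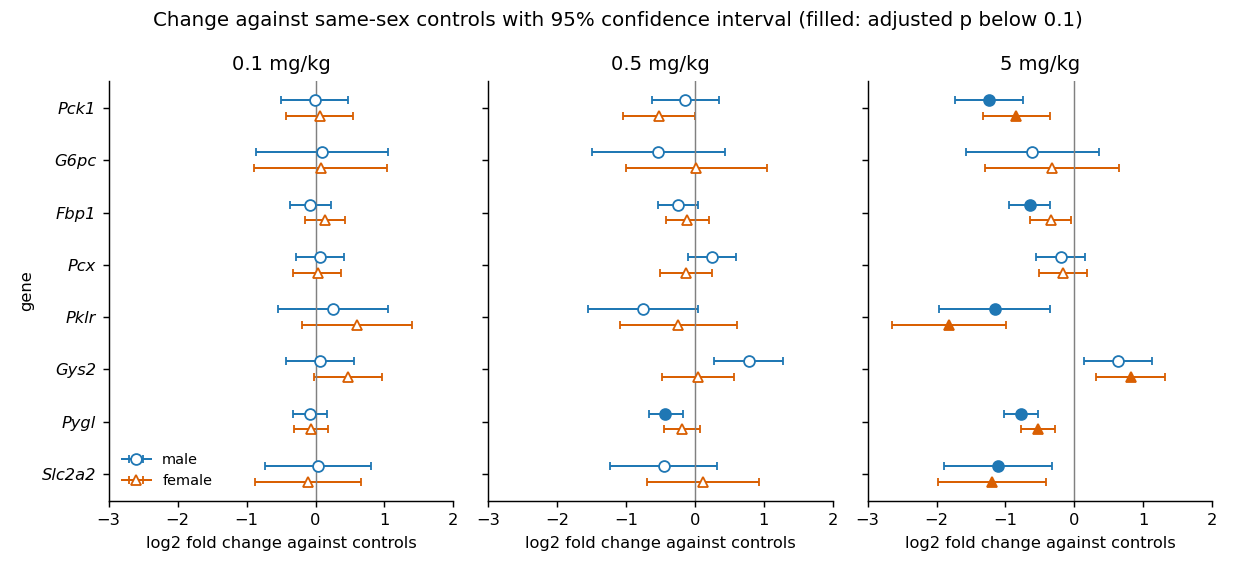
Log2 fold change of 8 genes against control mice of the same sex, with 95% confidence interval, at 0.1, 0.5 and 5 mg/kg for both sexes (males, blue circles; females, orange triangles). Filled symbols passed an adjusted p below 0.1: none at 0.1 mg/kg, *Pygl* in males at 0.5 mg/kg, and 5 genes in each sex at 5 mg/kg, with *Gys2* alone to the right of 0 among them. *Pfkfb1* is not drawn, since it was hardly detected.

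Below 5 mg/kg little was called. At 0.1 mg/kg no member was called in either sex, none had an unadjusted p below 0.05, and DESeq2 called none. Over all genes, edgeR called 0.0403% among males and 0% among females. At 0.5 mg/kg 1 member was called in males, against 2.61% of all genes, and DESeq2 called 3 (*Pygl*, *Gys2* and the hardly detected *Pfkfb1*). In females at 0.5 mg/kg no member was called and none had an unadjusted p below 0.05, DESeq2 called none, and 0.201% of all genes were called. Between 0.5 and 5 mg/kg 1 member was called in males (*Pck1*, against 3.01% of all genes) and 1 in females (*Pklr*, against 1.38%). The shares of all genes given here are those of edgeR, and none is set beside the DESeq2 counts. The 3 doses of a sex share their control mice, so their comparisons are not independent.

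No member passed the test of a difference in response between the sexes (the interaction term in edgeR), which called 0% of all genes for the lowest dose, 0.322% for the middle one and 1.19% for the highest. At 5 mg/kg and at 0.1 mg/kg no member had an unadjusted p below 0.05 and DESeq2 called none. At 0.5 mg/kg 1 member (*Gys2*) had an unadjusted p below 0.05, and DESeq2 called 1, *Pfkfb1*. The female effect minus the male effect at 5 mg/kg was 0.40 for *Pck1* (95% confidence interval −0.28 to 1.09), 0.31 for *Fbp1* (−0.10 to 0.72), −0.67 for *Pklr* (−1.80 to 0.47) and 0.24 for *Pygl* (−0.10 to 0.59). These intervals leave room for sizeable differences. In control mice *Pck1* was the 1 member called between the sexes, against 3.89% of all genes.

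Opposing enzymes can be set against each other within a library. The log2 ratio of *Gys2* to *Pygl* CPM, with 0.5 CPM added to each, was −3.77 ± 0.51 (SD) in control males and −2.33 ± 0.15 in males at 5 mg/kg, a difference of 1.44. In females it was −4.25 ± 0.28 and −2.95 ± 0.36, a difference of 1.29, and in both sexes the 5 treated mice were above all controls. Males at 0.5 mg/kg were at −2.60 ± 0.54, with overlap. The ratio of *Pck1* to *Pklr* overlapped with controls in every group, and at 5 mg/kg it differed from controls by −0.16 (males) and 0.96 (females). These ratios describe the mice and were not tested.

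**Figure D3:**
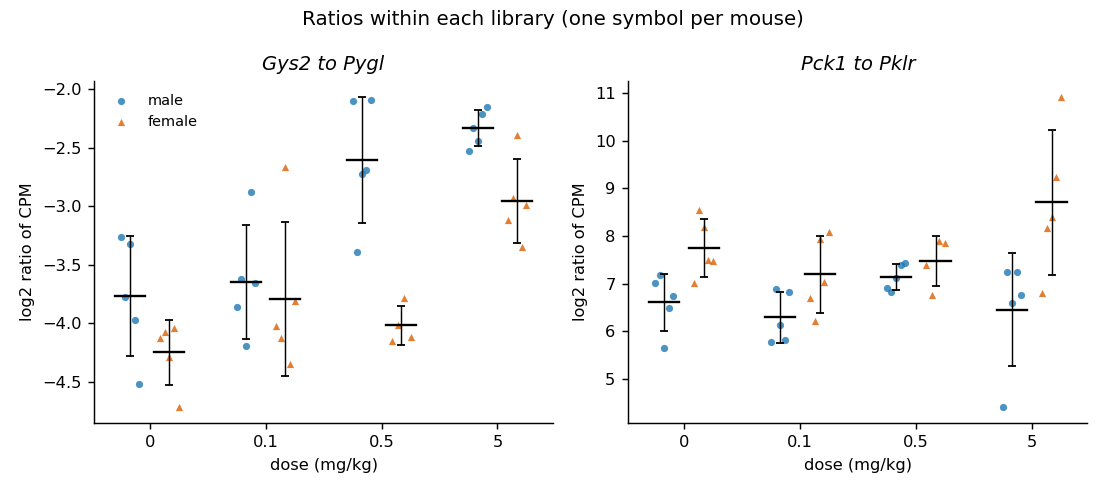
Log2 ratio of CPM within each library against dose (mg/kg) for *Gys2* to *Pygl* (left) and *Pck1* to *Pklr* (right), males (blue circles) and females (orange triangles), with group means (bars) and SD (whiskers). The *Gys2* to *Pygl* ratio at 5 mg/kg lies above all controls in both sexes, while the *Pck1* to *Pklr* ratio overlaps with controls at every dose.

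Around these 9 genes, most of the 80 further genes of the pathway were not called at 5 mg/kg. The share called over all genes at this dose was 9.35% in males and 4.09% in females. *Slc37a4*, the partner of *G6pc*, encodes the transporter that brings glucose 6-phosphate into the endoplasmic reticulum, where glucose-6-phosphatase splits it. It was at 124, 151, 148, 209 and 185 CPM in control males and at 30, 54.1, 20, 53.1 and 57.0 CPM in males at 5 mg/kg. In females it was at 166, 203, 221, 152 and 179 CPM in controls and at 49.7, 47.8, 81.4, 38.6 and 70.3 CPM at 5 mg/kg. The groups were well apart in both sexes. On the log2 scale *Slc37a4* fell in males by 1.93 ± 0.21 (73.8% lower, adjusted p = 1.95e-09, edgeR) and in females by 1.68 ± 0.21 (68.8% lower, adjusted p = 9.91e-08). Leaving out any mouse changed neither call, but a second probe of the gene was called in neither sex, with log2 fold changes of 0.56 and −1.78.

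Of the 16 further genes of gluconeogenesis and its substrate supply, 5 were called in males (4 higher, 1 lower) and 2 in females (1 in each direction) at the highest dose. *Slc16a1*, the lactate and pyruvate transporter MCT1, was at 122 to 164 CPM in control males and 388 to 489 CPM in males at 5 mg/kg, 2.95-fold higher (log2 fold change 1.56 ± 0.16, adjusted p = 4.22e-10, edgeR). In females it was at 120 to 242 CPM and 357 to 497 CPM, 2.27-fold higher. It had already risen in males at 0.5 mg/kg, by 0.65 ± 0.16 on the log2 scale (adjusted p = 0.0197, edgeR). *Pck2*, the mitochondrial carboxykinase, was at 0 to 9.67 CPM in control males and 10.8 to 29.5 CPM in males at 5 mg/kg, and rose by 2.81 ± 0.93 on the log2 scale (adjusted p = 0.0602, edgeR), a call lost without mouse 101, 102, 103 or 402. Males at 0.1 mg/kg already had *Pck2* at 6.24 to 17.2 CPM, so the control males were low. Females had *Pck2* at 4.85 to 17.2 CPM in controls and 0 to 15.9 CPM at 5 mg/kg. *Mdh2*, the mitochondrial malate dehydrogenase, rose in males at 5 mg/kg by 1.08 on the log2 scale. That call was lost without 8 of the 10 mice taken singly (101, 102, 103, 104, 401, 402, 403 and 405, adjusted p up to 0.217). *Fbp2*, the muscle-type bisphosphatase, had no read in any control male and 95 to 941 reads in each male at 5 mg/kg. Of 5 tested genes for the entry of glycerol, 2 were called in each sex, all higher. *Aqp3*, a glycerol channel, went from at most 1 read to 35 to 303 reads in males and from 0 to 10 to 230 reads in females. *Aqp9*, another glycerol channel, was called in neither sex and was also near the floor. Its mean was 4.04 CPM in control males and 0.920 CPM in males at 5 mg/kg, and 2.60 and 1.93 CPM in females. *Gk*, glycerol kinase, rose in males by 0.92 ± 0.25 (adjusted p = 0.0135, edgeR), and *Gpd1*, which joins glycerol to the triose phosphates, rose in females by 0.77 ± 0.13 (adjusted p = 6.45e-05). *Gpd1* also rose in males at 0.5 mg/kg, by 0.58 ± 0.13 (adjusted p = 0.00750), while at 5 mg/kg its log2 fold change in males was 0.30, not called. With all 40 libraries the calls of *Gk*, *Gpd1* and *Pck2*, and that of *Slc16a1* at 0.5 mg/kg, were lost, as was that of *Mdh2*.

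Among the 22 further glycolysis genes the highest dose gave 2 calls for males and 1 for females. *Pkm*, the pyruvate kinase of most other tissues, had no read in control males and 0 to 77 reads in males at 5 mg/kg, a call lost without mouse 101, 102, 103, 104, 105 or 401, and with all 40 libraries. Of 19 further glycogen genes tested, 2 were called in males and 0 in females, where the unadjusted p was below 0.05 for 2 genes and DESeq2 called 1. *Ugp2*, which makes UDP-glucose for glycogen synthase, was at 106 to 213 CPM in control males and 73.2 to 106 CPM at 5 mg/kg, and fell by 0.80 on the log2 scale (adjusted p = 0.00243, edgeR). *Gsk3b*, a kinase that inhibits glycogen synthase, rose in males by 0.69 ± 0.25 (adjusted p = 0.0895), a call lost without mouse 101, 102, 103, 105, 402, 403, 404 or 405, and with all 40 libraries.

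Of 14 regulators of the pathway, edgeR called *Hnf4a* alone at 5 mg/kg, lower in both sexes, while DESeq2 called 2 in males and 1 in females. This nuclear receptor maintains hepatocyte genes, *Pck1* and *G6pc* among them. It was at 227, 291, 408, 380 and 486 CPM in control males and 218, 232, 208, 184 and 188 CPM in males at 5 mg/kg, so 4 of the 5 treated males were below all controls. In females it was at 270 to 407 CPM in controls and 173 to 269 CPM at 5 mg/kg, without overlap. *Hnf4a* changed by −0.80 ± 0.16 on the log2 scale in males (adjusted p = 0.000497, edgeR) and −0.56 ± 0.16 in females (adjusted p = 0.0439, lost without mouse 152 or 451 and with all 40 libraries). A second *Hnf4a* probe gave −0.73 in males, called, and −0.53 in females, not called.

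**Figure D4:**
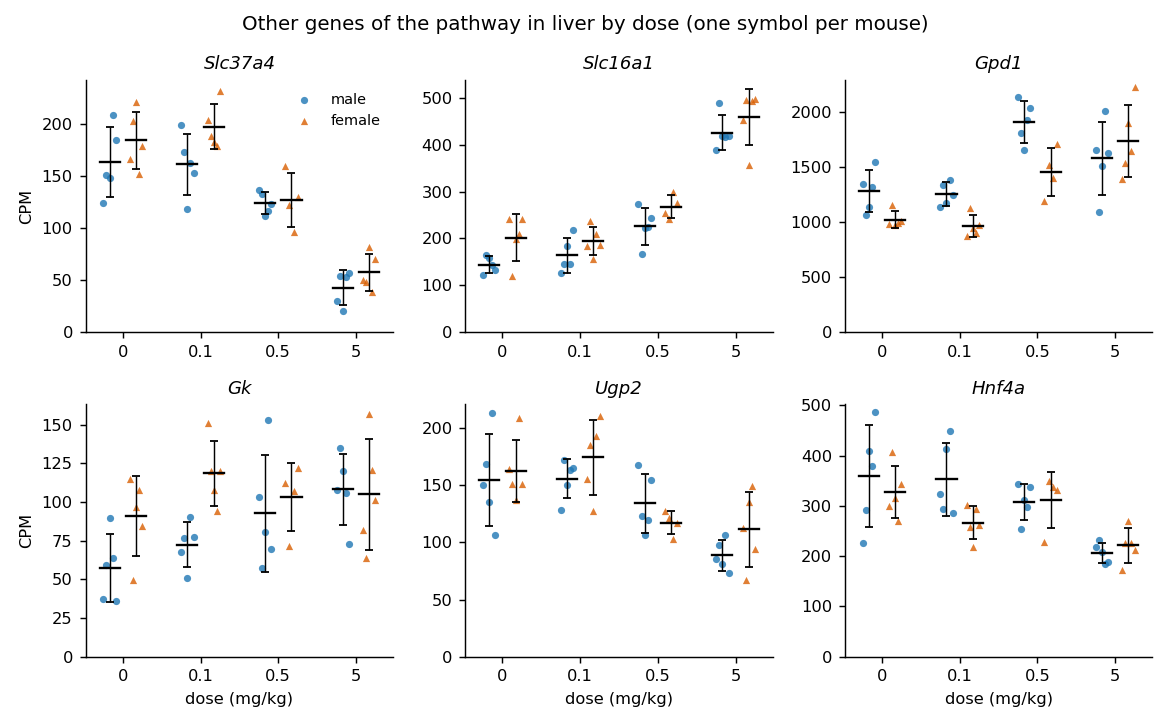
Level (CPM, linear axis from 0) of 6 further genes of the pathway against dose (mg/kg) in males (blue circles) and females (orange triangles), 1 symbol per mouse, with group means (bars) and SD (whiskers). At 5 mg/kg *Slc37a4* lies below and *Slc16a1* above all controls in both sexes, and *Hnf4a* lies below all control females.

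Markers of position in the liver lobule moved in the same mice. Gluconeogenesis is most active in periportal hepatocytes, around the incoming blood. All 6 periportal markers were called in males at 5 mg/kg, 5 of them lower (*Hal* and *Ass1* among them) and *Hsd17b13* higher, and their summed level was 3437 to 4815 CPM against 7458 to 10590 CPM in controls. In females *Ass1*, *Hal* and *Gls2* were called, all lower, and the sum was 4159 to 5427 CPM against 7135 to 9181 CPM. In males at 0.5 mg/kg 3 of the 6 were called (*Ass1* and *Gls2* lower, *Hsd17b13* higher), and the sum was 5193 to 7102 CPM. At 5 mg/kg 3 of the 6 pericentral markers fell in males (*Oat*, *Cyp1a2* and *Cyp2e1*) and 2 fell in females (*Cyp1a2* and *Glul*), with sums of 2931 to 4344 CPM in males and 4538 to 10357 CPM in females, against 5179 to 7992 and 5895 to 10272 CPM. Most of each sum came from 1 gene. In control males *Ass1* had a mean of 5680 CPM of a periportal sum of 8815 CPM, and *Cyp2e1* 5489 CPM of a pericentral sum of 6793 CPM. In females *Cyp2e1* had a mean of 5936 CPM in controls and 6340 CPM at 5 mg/kg. The hepatocyte markers were called in neither sex at this dose by edgeR or DESeq2, and none had an unadjusted p below 0.05. The part of lobular position in the members' results was not tested.

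Markers of other cell types were counted in the same way. Of the 6 stellate cell markers, *Col1a1* and *Col3a1* rose in males at 5 mg/kg, by 1.63 and 2.45 on the log2 scale, and the sum was 157 to 194 CPM against 63.7 to 129 CPM in controls. In females it was 95.5 to 151 against 103 to 154 CPM. The mean sum in males went from 97.8 to 176 CPM, a rise that lay mostly in *Col1a1* and *Col3a1*. Their means went from 16.8 to 51.9 and from 8.69 to 47.5 CPM. No other stellate marker was called in males at 5 mg/kg, and the lowest log2 fold change among them was −1.11. Of 6 endothelial markers, *Clec4g* fell in males. Kupffer cell (5 tested of 6), bile duct (3 of 5) and leukocyte (4 of 6) markers were not called at 5 mg/kg in either sex by edgeR or DESeq2. An unadjusted p below 0.05 was found for 1 Kupffer marker in males and 0 in females, for 1 bile duct marker in each sex, and for 1 leukocyte marker in males and 3 in females. Of 11 clock genes, 10 were tested and 0 were called at any dose by edgeR. The clock genes summed to 38.2 to 99.0 CPM in control males and 46.1 to 164 CPM in males at 5 mg/kg, and 58.1 to 87.1 and 42.7 to 337 CPM in females. At 5 mg/kg the unadjusted p was below 0.05 for 1 clock gene in males and for 3 in females, and DESeq2 called 1 in each sex. The part of sampling time and of feeding in the members' results was not tested.

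For each member called against controls, the genes whose 6 log2 fold changes against controls were nearest, among those called in the same comparisons, were listed by the root mean square difference. For *Pck1* these were *Sdc4*, a membrane proteoglycan (0.07 on the log2 scale), and *Crp*, the C-reactive protein (0.10), of 337 genes. For *Fbp1* they were *Mtus1* (0.08) and *Pxmp2* (0.09) of 1159 genes, for *Pygl* *Ppib* (0.09) and *Serpinc1*, antithrombin (0.10), of 113, and for *Slc2a2* *Ceacam1* (0.11) and *Rsrp1* (0.18) of 337. For *Pklr* they were *Bhmt*, an enzyme of methionine metabolism (0.27), and *Hs6st1* (0.33), also of 337, and for *Gys2*, among 507 genes, *Phb2* (0.20) and *Serhl* (0.21). The members differ in SE and in the number of genes compared, so these distances are not ranked between members. At the highest dose *Sdc4* fell by 1.25 (males) and 0.92 (females), and *Ppib* fell by 0.91 and 0.57 on the log2 scale.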

How the data were processed

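Formalin-fixed, paraffin-embedded liver was scraped from slides and processed for TempO-Seq by a company, BioSpyder Technologies, and the reads were assigned to probes. The submitters' processing notes name bcl2fastq 2.17.1.14, Bowtie and mm10. The authors deposited raw counts, the reads on each of 30146 probes in each of 40 mice, without normalization. Group and sex were taken from the labels. No libraries were identical. As in the study, a library more than 2 SD below the mean of 13041142 reads was left out. Counts were tested in R 4.3.3 with edgeR 4.0.16 (TMM, default filter, 1 coefficient per group over 39 libraries, quasi-likelihood F-test, two-sided), and p-values were adjusted by Benjamini and Hochberg over 17877 probes with a threshold of 0.1. DESeq2 1.42.0 was an alternative. Both tools and the search for the reads per molecule (smoothing SD of 2 reads) were tested on simulated data. The members and the gene lists were chosen with earlier results of these data known. All members are named in every comparison, every called gene of a pathway list with up to 5 calls, otherwise the 4 of largest change, and up to 3 called genes per marker list. Some called glycolysis genes are not reported here. Ratios had 0.5 CPM added. Alternatives were DESeq2, its size factors in edgeR, no filter, all 40 libraries, the groups compared alone, probes summed, the second probe, a threshold of 0.05, ratios with 2 CPM, leaving out each mouse and, chosen after seeing the data, counts in molecules.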

Additional observations from a re-analysis of the deposited data

Results flagged for a closer look

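Each of the 71 groups of mice with reads on a member was searched for a mouse whose level lay far from the rest of its group, by Dixon's test at the 95% level, and 10 groups had one. Chance flags about 1 in 20 groups. Mouse 401 had *Pklr* at 27 CPM among males at 5 mg/kg, and mouse 455 had *G6pc* at 146 CPM among females at 5 mg/kg. Mouse 104 had *Fbp1* at 5714 CPM, the highest control male, and mouse 155 had *Gys2* at 38.8 CPM, the lowest control female. At the lower doses mouse 354 had *Fbp1* at 2983 CPM (females, 0.5 mg/kg), mouse 253 *Gys2* at 126 CPM (females, 0.1 mg/kg) and mouse 201 *Slc2a2* at 42.8 CPM (males, 0.1 mg/kg). For *Pfkfb1* a single mouse with reads among mice at 0 was enough: mouse 402 at 5.05 CPM (males, 5 mg/kg), mouse 351 at 2.91 CPM (females, 0.5 mg/kg) and mouse 455 at 3.58 CPM (females, 5 mg/kg). In mouse 355, the library left out, no member exceeded the highest control female in reads per 1e6.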

How the results depend on the processing

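Under all alternatives in which they could be computed, 1 called value changed direction: the second *Slc2a2* probe in females at 5 mg/kg (0.47). In males at 5 mg/kg the 5 members called became 3 without the filter or at an adjusted p below 0.05 (*Pck1*, *Fbp1* and *Pygl*) and 1 with all 40 libraries (*Pck1*), and in females 5 became 3 at 0.05 (*Pck1*, *Pklr* and *Pygl*) and 1 with all 40 libraries (*Pklr*). In males at 0.5 mg/kg the 1 member became 2 without the filter, within males alone or with counts in molecules (*Gys2* joined), 3 with DESeq2, and 0 with all 40 libraries, with the second probe or at 0.05. From 0.5 to 5 mg/kg, males had 2 without the filter (*Fbp1* joined) and 3 with DESeq2 (*Pygl* and *Pfkfb1* joined), and females had 0 with all 40 libraries, within females alone, at 0.05 and with counts in molecules, and 3 with DESeq2 (*Gys2* and *Slc2a2* joined). DESeq2 called 1 member in the interaction at 0.5 mg/kg, and with all 40 libraries 0 differed between control sexes. Leaving out each mouse gave 3 to 5 members in males and 2 to 6 in females at 5 mg/kg, 0 to 2 in males at 0.5 mg/kg, 1 to 2 and 0 to 2 for the dose step in males and females, and 0 to 2 between control sexes. With counts in molecules *Gys2* passed in males at 5 mg/kg and *Slc2a2* did not in females. Shares over all genes are given in this report for the main fit only. These counts therefore do not show whether a setting changed the calls of the members or of all genes. The causes of these changes were not tested. Of 139 called values without 1 mouse, 44 lost the call and 0 changed sign; of 1630 values of members not called, 133 changed sign and 19 passed the threshold. *Pck1*, *Fbp1* and *Pygl* in males and *Pklr* and *Pygl* in females kept their calls at 5 mg/kg without any single mouse. The median change of all probes in males at 5 mg/kg was 0.10 (log2) with TMM and 0.03 with DESeq2's size factors. Few captured molecules limit *Pklr*, *Slc2a2* and *Pfkfb1*. No paired analysis was possible because no mouse number is shared between groups.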
